A study of Homo sapiens with 15 samples.

Results

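The 9 genes described here are NFE2L2, KEAP1, GCLC, GCLM, TXNRD1, SRXN1, PRDX1, NQO1 and ME1, out of 57820 gene identifiers. They were chosen by symbol as the NRF2 factor, its inhibitor and antioxidant genes of the NRF2 program. The rule uses no measured value, but the choice was made with earlier results of these libraries known. NRF2 is a basic leucine zipper factor that pairs with small MAF proteins on antioxidant response elements in promoters and enhancers. In unstressed cells KEAP1 holds NRF2 for ubiquitination by a CUL3 ligase, and oxidants or electrophiles that modify KEAP1 cysteines let NRF2 accumulate, so NRF2 activity is set largely at the protein level. Its targets make glutathione, recycle thioredoxin, reduce quinones and peroxides, and supply NADPH, and the program is known in acute myeloid leukemia (AML) for its part in resistance to drugs that raise oxidants.

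NQO1 transcripts were 2.55-fold higher in U937 cells and 2.24-fold higher in HL-60 cells, both AML lines, after knockdown of the ubiquitin ligase RNF5 (RNF5-KD), and GCLM transcripts were 2.03-fold and 1.44-fold higher in the same lines. TXNRD1 rose in U937, ME1 rose in HL-60, and PRDX1 fell in HL-60. None of these genes passed the test in MOLM-13. NFE2L2, which encodes the transcription factor NRF2, and KEAP1, which encodes its inhibitor, were not called in any of the 3 lines.

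The 15 RNA-seq libraries came from 3 human AML cell lines, MOLM-13, HL-60 and U937, each transduced with the empty lentiviral vector pLKO or with a hairpin against RNF5 (shRNF5). There were 3 pLKO and 2 shRNF5 libraries of MOLM-13, 2 and 2 of U937, and 3 and 3 of HL-60. The sources used here do not say which hairpin was sequenced, so each shRNF5 group may rest on 1 hairpin, and they give the harvest as 7 days in the sample labels and 5 days in the series design. The study says in general terms that experiments were repeated independently, but does not tie the libraries of a group to separate cultures, so the p-values may measure the spread between these libraries, which may be technical. Replicate numbers are those of the sample titles, and the deposited names number the 2 MOLM-13 shRNF5 libraries otherwise, as 2 and 3 in place of 1 and 2. The values are normalized read counts, meaning reads per gene scaled by 1 factor per library within a line, and fold changes are on the log2(value + 1) scale, so changes of lowly expressed genes are understated. Calls were made where limma gave an adjusted p under 0.1 and a log2 fold change above 0.4 or below -0.4. RNA of a whole culture was measured, so more cells expressing a gene and more RNA per cell cannot be told apart.

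RNF5 was lower in every shRNF5 library than in every pLKO library of its line. On the log2 scale it changed by -3.77 in MOLM-13 (limma adjusted p = 0.000336), by -3.64 in U937 (0.00287) and by -3.25 in HL-60 (0.00125). Estimated depth was 9700000 to 15300000 reads in the MOLM-13 pLKO libraries and 24400000 to 63100000 in the MOLM-13 shRNF5 libraries, so depth and construct cannot be told apart in that line. It was 13300000 to 21400000 reads in the libraries of the other lines, where the groups overlapped. Of 9 myeloid markers, 9 were above 0 in MOLM-13 and 8 in U937 and HL-60, with CD14 at 0. The T cell and erythroid markers were at 0 in all libraries, the epithelial list held KRT8 alone, at 82 to 134 in MOLM-13, and the fibroblast list held COL1A1 in U937 alone, at 15 to 234. KRT8 was 6 to 8 in HL-60 pLKO and 18 to 25 in HL-60 shRNF5 (log2 fold change 1.56, adjusted p = 0.0164). B cell markers summed to 120 to 126 in U937 pLKO and 65 to 74 in U937 shRNF5, and to 22 to 34 and 38 to 44 in HL-60. The summed myeloid markers ranged from 114833 to 139429 in HL-60 pLKO and from 150888 to 218733 in HL-60 shRNF5, and from 22579 to 24139 and 18217 to 21442 in U937. The HL-60 sum is mostly MPO (called up, 0.60), and within the list PTPRC and LYZ were also called up there, CD33 was called down (-0.45, adjusted p = 0.0241) and SPI1 was not called (-0.04). In U937, CSF3R alone of the myeloid list was called, and it was down (-0.97, adjusted p = 0.0614). SPI1 was not called there (-0.79, adjusted p = 0.127), although both shRNF5 libraries were lower. The part of these markers in the results below was not tested.

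All 9 genes are protein-coding, and their positions are given on GRCh37, the build of the alignment. The core letters of an antioxidant response element, TGACNNNGC, were sought on both strands from 1000 bases before to 100 bases after the canonical transcript start. Of 19881 such windows of protein-coding genes, 35.8% held a match, so a match alone is common. The windows of 6 members held one, namely GCLC, GCLM, TXNRD1, PRDX1, NQO1 and ME1, and the windows of NFE2L2, KEAP1 and SRXN1 did not. The matches that begin upstream of the start are shown for the 4 members called up and for PRDX1, the 1 member called down. Matched letters are in capitals, with 8 bases on each side, and the TXNRD1 match 8 bases before the start reaches the first transcript base.
GCLM, chr1:94375004-94375028, + strand, 34 bases before the start: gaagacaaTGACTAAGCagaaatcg
NQO1, chr16:69760902-69760926, - strand, 455 bases before the start: agtcacagTGACTCAGCagaatctg
ME1, chr6:84140891-84140915, - strand, 137 bases before the start: tcctgccaTGACTCAGCgcttctcg
TXNRD1, chr12:104609450-104609474, + strand, 99 bases before the start: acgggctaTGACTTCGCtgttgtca
TXNRD1, chr12:104609541-104609565, - strand, 8 bases before the start: gtgggaacTGACGGAGCcgaaggac
PRDX1, chr1:45987681-45987705, + strand, 141 bases before the start: cgccggaaTGACTCGGCgctttccc
NQO1 and ME1 carry the same 9 letters, which also contain TGACTCA, the consensus of AP-1 factors. ME1 has further matches 11 and 68 bases after its start, and GCLC has 1 match, 870 bases before its start. The match is a description of letters, and no binding was measured in these libraries.

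NFE2L2 (ENSG00000116044.11, chromosome 2, 178083395 to 178257484, minus strand) did not pass the test in any line. Its normalized read counts in MOLM-13 were 2584, 3147 and 3584 with pLKO and 3307 and 3599 with shRNF5. In U937 they were 3799 and 2385 with pLKO and 2885 and 2623 with shRNF5. In HL-60 they were 1667, 2009 and 1738 with pLKO and 1599, 1799 and 1980 with shRNF5. The groups overlapped in all 3 lines. It changed by 0.16 on the log2 scale in MOLM-13 (95% interval -0.22 to 0.55, adjusted p = 0.645), -0.13 in U937 (adjusted p = 0.79) and -0.01 in HL-60 (adjusted p = 0.963). The intervals, which reach from -0.73 to 0.47 in U937, do not show that NFE2L2 RNA was the same in both groups. In the annotation used here, 23.4% of its exonic bases are shared with HNRNPA3 on the opposite strand. Another 13.6% are shared with a long noncoding RNA gene on the same strand, whose values were 20 to 162. The strand setting of the counting is not given in the sources used here, and its gene model may differ.

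KEAP1 (ENSG00000079999.9, chromosome 19, 10596801 to 10614234, minus strand) was higher in all 3 HL-60 shRNF5 libraries than in any HL-60 pLKO library, but its change was too small to be called. The HL-60 values were 1096, 1378 and 1140 with pLKO and 1395, 1589 and 1704 with shRNF5. This was a log2 fold change of 0.38 ± 0.13 (SE, adjusted p = 0.0713), just under the fold needed, and KEAP1 was called without HL-60 pLKO replicate 2 (log2 fold change 0.48, adjusted p = 0.0368) or without HL-60 shRNF5 replicate 1 (0.46, adjusted p = 0.059). In U937 the values were 1896 and 1546 with pLKO and 2234 and 1832 with shRNF5, which overlap. In MOLM-13 they were 3564, 3127 and 2918 with pLKO and 2977 and 3122 with shRNF5, which also overlap. The adjusted p was 0.559 in U937 and 0.842 in MOLM-13.

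GCLM (ENSG00000023909.5, chromosome 1, 94350755 to 94375012, minus strand) encodes the modifier subunit of glutamate-cysteine ligase, the enzyme that catalyses the first step of glutathione synthesis. Its normalized read counts in U937 were 1178 and 1514 with pLKO and 2483 and 2961 with shRNF5. In HL-60 they were 1327, 853 and 1000 with pLKO and 1564, 1418 and 1526 with shRNF5. In MOLM-13 they were 1392, 2211 and 1616 with pLKO and 1606 and 1712 with shRNF5. The groups were separate in U937 and HL-60, and in MOLM-13 the shRNF5 libraries lay inside the pLKO range. The log2 fold change was 1.02 ± 0.25 (SE) in U937 (adjusted p = 0.0416) and 0.53 ± 0.16 in HL-60 (adjusted p = 0.0406), so GCLM rose in both lines. In MOLM-13 it was -0.04 (95% interval -0.51 to 0.43, adjusted p = 0.932). The HL-60 call was lost without pLKO replicate 2 (0.38, adjusted p = 0.103), pLKO replicate 3 (0.50, 0.134) or shRNF5 replicate 3 (0.51, 0.108). The U937 call was lost without the mean-variance trend (adjusted p = 0.139). It was also lost when any library but pLKO replicate 3 was left out. Such fits leave a group with a single library, so this loss says little about GCLM itself. Its log2 fold change ran from 0.84 to 1.2 with 1 U937 library left out.

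GCLC (ENSG00000001084.6, chromosome 6, 53362139 to 53481768, minus strand) encodes the catalytic subunit of the same enzyme, and it was not called in any line. In U937 its values were 1824 and 1643 with pLKO and 1994 and 1685 with shRNF5. In HL-60 they were 1546, 1324 and 1530 with pLKO and 1429, 1664 and 1492 with shRNF5, and both lines showed overlap. In MOLM-13 both shRNF5 libraries, at 1271 and 1309, were below the pLKO libraries, at 1636, 1467 and 1319. Log2 fold changes were 0.08 in U937 (95% interval -0.45 to 0.61), 0.06 in HL-60 (-0.21 to 0.33) and -0.19 in MOLM-13 (-0.54 to 0.16), with adjusted p-values of 0.853, 0.756 and 0.559. The subunits of this one enzyme therefore differed in U937 and HL-60 in whether they were called, and the difference between them was not tested.

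TXNRD1 (ENSG00000198431.11, chromosome 12, 104609557 to 104744085, plus strand) encodes cytosolic thioredoxin reductase, which uses NADPH to reduce thioredoxin. Its normalized read counts in U937 were 2849 and 3434 with pLKO and 5716 and 5488 with shRNF5. In HL-60 they were 6238, 5199 and 5572 with pLKO and 6091, 5626 and 4599 with shRNF5. In MOLM-13 they were 6746, 9497 and 7352 with pLKO and 8900 and 7823 with shRNF5. The groups were separate in U937 alone. TXNRD1 rose in U937, with a log2 fold change of 0.84 ± 0.24 (SE, adjusted p = 0.0593, 1.79-fold), and was not called in HL-60 (-0.07, adjusted p = 0.764) or MOLM-13 (0.10, adjusted p = 0.796). The U937 call was lost without the mean-variance trend (adjusted p = 0.159). It was also lost when any library but pLKO replicate 3 was left out. Such fits leave a group with a single library, so this loss says little about TXNRD1 itself. Its log2 fold change ran from 0.71 to 0.97 with 1 U937 library left out. Per 1000000 summed values, TXNRD1 was 173 to 214 in U937 pLKO and 327 to 339 in U937 shRNF5, beside 264 to 368 in MOLM-13 pLKO and 317 to 390 in HL-60 pLKO.

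PRDX1 (ENSG00000117450.9, chromosome 1, 45976586 to 46008404, minus strand) encodes an abundant peroxiredoxin that reduces hydrogen peroxide with electrons from thioredoxin, and it was the 1 member called down. In HL-60 its values were 5539, 5048 and 4778 with pLKO and 3094, 3756 and 3162 with shRNF5, so all shRNF5 libraries were lower. This gave a log2 fold change of -0.62 ± 0.12 (SE, adjusted p = 0.00823, 0.65-fold), and the call held in each of the 6 fits that left out an HL-60 library, with adjusted p of at most 0.0382. In U937 the values were 4744 and 5109 with pLKO and 5072 and 5487 with shRNF5. In MOLM-13 they were 9227, 9989 and 9104 with pLKO and 9440 and 9224 with shRNF5. Both lines showed overlap, with log2 fold changes of 0.10 (adjusted p = 0.813) and -0.02 (adjusted p = 0.959). In the annotation used here, MMACHC, on the opposite strand, shares 29.8% of the exonic bases of PRDX1.

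SRXN1 (ENSG00000271303.1, chromosome 20, 627259 to 633844, minus strand) encodes sulfiredoxin, which reactivates over-oxidized peroxiredoxins. It was listed at 0 in all 15 libraries, so no comparison was possible. A readthrough gene model on the same strand, also listed at 0, shares 90.7% of its exonic bases, and how reads in such shared bases were counted is not given in the sources used here. The 0 is therefore no measure of SRXN1 RNA.

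NQO1 (ENSG00000181019.8, chromosome 16, 69740899 to 69760571, minus strand) encodes a quinone reductase whose RNA is widely used as a readout of NRF2 activity. Its normalized read counts in U937 were 840 and 1613 with pLKO and 2611 and 3386 with shRNF5. In HL-60 they were 522, 343 and 392 with pLKO and 675, 1143 and 1031 with shRNF5. In MOLM-13 they were 1146, 1282 and 792 with pLKO and 969 and 881 with shRNF5. The groups were separate in U937 and HL-60, although the U937 pLKO libraries were far apart from each other, and in MOLM-13 they overlapped. NQO1 rose in U937, with a log2 fold change of 1.35 ± 0.32 (SE, adjusted p = 0.0375), and in HL-60, with 1.17 ± 0.21 (adjusted p = 0.00611). The MOLM-13 value was -0.19 (95% interval -0.69 to 0.32, adjusted p = 0.693). The HL-60 call held in each of the 6 fits with an HL-60 library left out, with adjusted p of at most 0.0334. The U937 call was lost without the mean-variance trend (adjusted p = 0.143). It was also lost when any library but pLKO replicate 3 was left out. Such fits leave a group with a single library, so this loss says little about NQO1 itself. Its log2 fold change ran from 0.88 to 1.82 with 1 U937 library left out.

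ME1 (ENSG00000065833.7, chromosome 6, 83920121 to 84140770, minus strand) encodes cytosolic malic enzyme, which makes NADPH from malate, and it had the largest change of the members in HL-60. Its values there were 468, 238 and 346 with pLKO and 941, 957 and 1500 with shRNF5, so each shRNF5 library held more than any pLKO library. ME1 rose by 1.71 ± 0.25 on the log2 scale (SE, adjusted p = 0.00232, 3.27-fold), and the call held in each of the 6 fits with an HL-60 library left out, with adjusted p of at most 0.0162. In MOLM-13 the values were 672, 863 and 827 with pLKO and 823 and 861 with shRNF5, which overlap, and the log2 fold change was 0.10 (adjusted p = 0.785). In U937 ME1 was listed at 0 in all 4 libraries, as genes that failed the filter on low counts were, so it was not tested there.

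**Figure D1:**
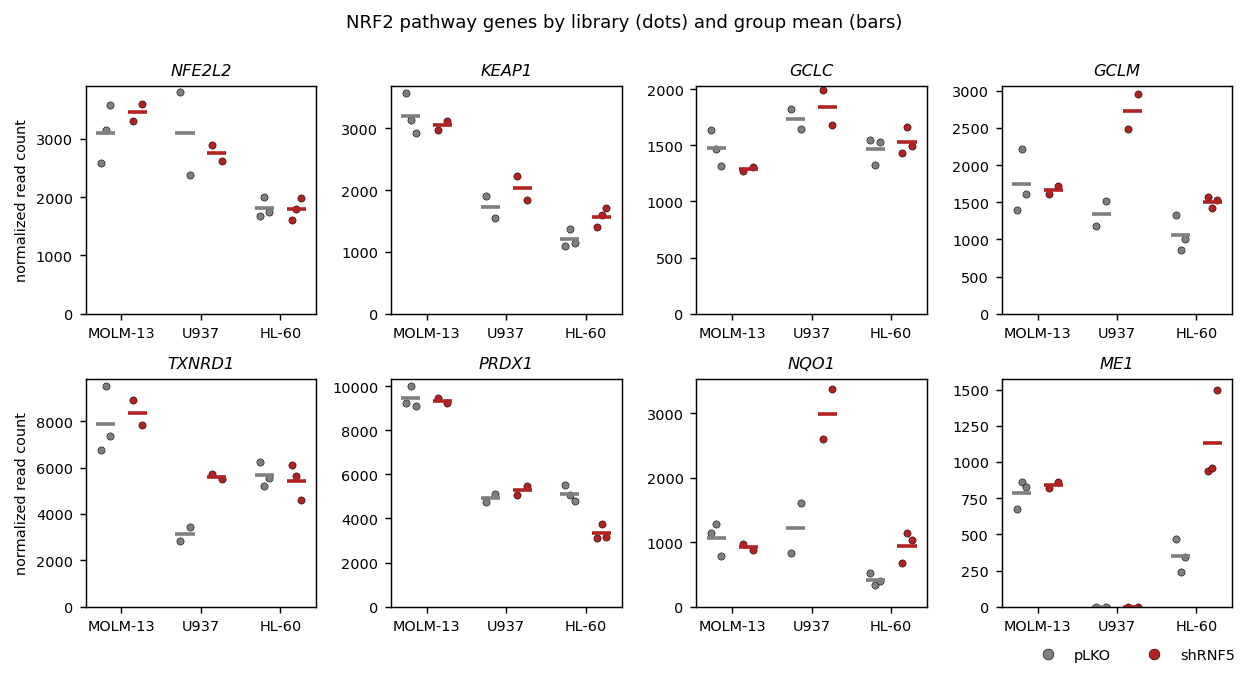
Normalized read count (vertical axis, from 0) of the 8 members above 0, in pLKO (grey) and shRNF5 (red) libraries of each line (horizontal axis). Each dot is 1 library and each bar is a group mean, and values compare within a line. NQO1 and GCLM lie higher with shRNF5 in U937 and HL-60, and PRDX1 lies lower in HL-60.

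In MOLM-13, 0 of 8 members tested were called by limma, where 1.03% of 13026 genes were called up and 1.01% down. There, 0 of 8 had an unadjusted limma p under 0.05, but the share of all genes under that limit was not taken, so this count has no background. In U937, 3 of 7 members were called up and 0 down, where 6.92% of 13165 genes were called up and 8.74% down. In HL-60, 3 of 8 members were called up and 1 down, where 13.6% of 12570 genes were called up and 12.3% down. The median log2 fold change of the members tested was -0.03 in MOLM-13, beside 0.007 over all genes tested. It was 0.24 in U937, beside 0.004, and 0.22 in HL-60, beside 0.002. Members of the same RNA pool are not replicates of one another, so no test was made over them. The members were also chosen with earlier results of these libraries known, so their shares are descriptions only. The 3 calls in U937 were lost without the mean-variance trend (adjusted p 0.139 to 0.159). They were also lost without pLKO replicate 2, shRNF5 replicate 1 or shRNF5 replicate 3, and held without pLKO replicate 3. Each fit with a U937 library left out has a single library in 1 group. RNF5 itself was not called in U937 without pLKO replicate 2 or shRNF5 replicate 1, so losses in these fits say little about single genes.

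**Figure D2:**
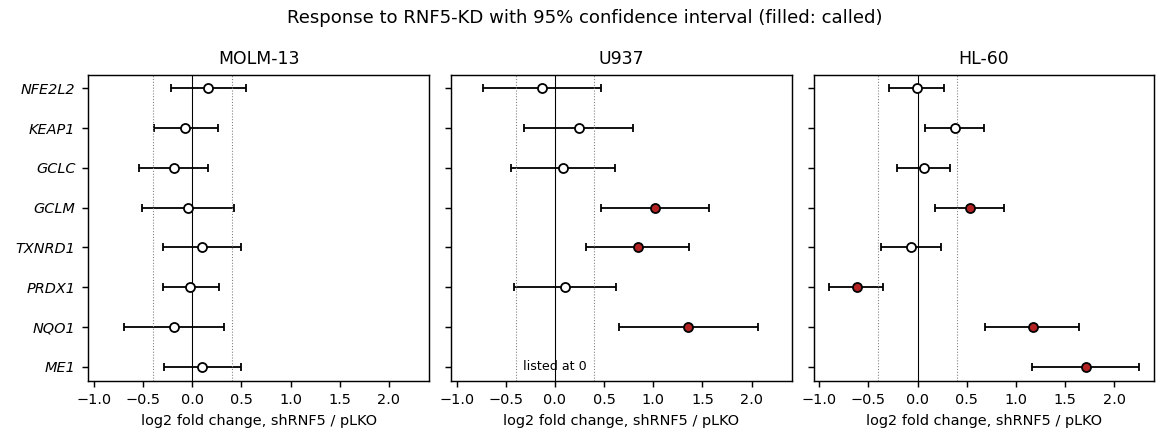
Log2 fold change of shRNF5 over pLKO (horizontal axis) with its 95% confidence interval for 8 members (vertical axis) in each line. Filled points were called, and dotted lines mark the fold change of 0.4 that a call required. MOLM-13 has no filled point, U937 has 3, and HL-60 has 4.

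The responses of the members were then compared between lines in 1 fit over the 15 libraries, for genes above 0 in every line. These pairs of lines share libraries, so the 3 comparisons are not independent. Between MOLM-13 and U937 the response differed for GCLM (MOLM-13 minus U937, -1.06, adjusted p = 0.0465), TXNRD1 (-0.74, 0.0808) and NQO1 (-1.54, 0.0417), where 15.4% of 11072 genes differed. With the libraries of these lines alone, NQO1 still differed (adjusted p = 0.0962), and GCLM (0.111) and TXNRD1 (0.158) did not pass. The NQO1 call was lost without MOLM-13 shRNF5 replicate 2 (adjusted p = 0.155), U937 pLKO replicate 2 (0.182) or U937 shRNF5 replicate 1 (0.134). The GCLM call was lost without any 1 of these libraries (0.141 to 0.172), MOLM-13 pLKO replicate 2 (0.106) or MOLM-13 shRNF5 replicate 1 (0.138). That of TXNRD1 was lost without any 1 of these 5 libraries (0.141 to 0.277), U937 shRNF5 replicate 3 (0.103) or HL-60 pLKO replicate 3 (0.108), and also without the mean-variance trend (0.113). Between MOLM-13 and HL-60 it differed for NQO1 (MOLM-13 minus HL-60, -1.35, adjusted p = 0.0631) and PRDX1 (0.61, 0.0702), where 8.82% of genes differed. Each of these calls was lost in 7 of 15 fits with 1 library left out, namely MOLM-13 pLKO replicate 1, MOLM-13 shRNF5 replicates 1 and 2, HL-60 pLKO replicate 3 and HL-60 shRNF5 replicate 3 for both genes, and further HL-60 pLKO replicate 1 and HL-60 shRNF5 replicate 1 for PRDX1 and MOLM-13 pLKO replicate 2 and HL-60 shRNF5 replicate 2 for NQO1, with adjusted p from 0.109 to 0.28. The PRDX1 difference was also lost without the mean-variance trend (0.101). ME1, which could be compared only in a fit over the libraries of MOLM-13 and HL-60, differed by -1.60 ± 0.35 (SE, adjusted p = 0.0231).

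Between U937 and HL-60 the response differed for TXNRD1 (U937 minus HL-60, 0.91 ± 0.24 SE, adjusted p = 0.0131) and PRDX1 (0.72 ± 0.19, adjusted p = 0.0122), where 37.2% of genes differed. Both calls held in each of the 15 fits with 1 library left out. NQO1 was not shown to differ between these lines (0.19, 95% interval -0.68 to 1.05, adjusted p = 0.76), nor was GCLM (0.49, -0.12 to 1.11, adjusted p = 0.216). NFE2L2, KEAP1 and GCLC did not pass in any of the 3 pairs, except that NFE2L2 differed between MOLM-13 and U937 without U937 pLKO replicate 3 (0.63, adjusted p = 0.0922). With all libraries, the largest of these differences was that of KEAP1 between MOLM-13 and HL-60 (-0.44, adjusted p = 0.235).

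Levels of the members in pLKO cells also varied between lines, which were normalized separately, so they are given per 1000000 summed values and were not tested. KEAP1 was 117 to 140 in MOLM-13, 96.5 to 115 in U937 and 68.6 to 84.1 in HL-60, with no overlap. GCLC ran in another order, at 103 to 111 in U937, 80.8 to 96.7 in HL-60 and 53.0 to 64.1 in MOLM-13, again with no overlap. NQO1 was highest in U937, at 51.0 to 101, whereas MOLM-13, at 31.8 to 49.6, and HL-60, at 20.9 to 32.7, overlapped. NFE2L2 was highest in U937 as well, at 149 to 231, and overlapped between MOLM-13, at 101 to 144, and HL-60, at 104 to 123. GCLM overlapped among all 3 lines, at 54.5 to 85.6 in MOLM-13, 71.5 to 94.5 in U937 and 52.0 to 83.0 in HL-60. PRDX1 was highest in MOLM-13, at 361 to 387, and overlapped between U937, at 288 to 319, and HL-60, at 294 to 346. ME1 overlapped between MOLM-13, at 26.3 to 33.4, and HL-60, at 14.5 to 29.3.

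Levels of different members were ranked per kilobase of canonical transcript. By that level PRDX1 ranked highest in each line, between percentiles 98.7 and 99.0 of the genes above 0 in pLKO libraries, and TXNRD1 reached percentiles 85.4 to 94.7. ME1 ranked lowest where it was above 0, at percentiles 33.3 to 51.8. The library kit is a 3′ end kit in the sample labels and a directional poly(A) kit in the methods. How far these values depend on transcript length, and so whether division by it is apt, is therefore not settled. The ranks rest on that step, as canonical transcripts ran from 945 bases for PRDX1 to 4883 for GCLM.

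Across the 15 libraries, each gene centred within its line on the log2 scale, GCLM varied most closely with NQO1 among the members (r = 0.86) and then with TXNRD1 (r = 0.76), while NFE2L2 and NQO1 had r = -0.42. These values are descriptions over libraries that share construct and scaling. Over 11071 genes, the 3 most like GCLM were PPP2R3C (r = 0.94), TMX1 (0.92) and BTBD10 (0.90). For TXNRD1 they were CENPO (0.96), KIAA1524 (0.95) and WBP11 (0.95), and for NFE2L2 ZFAND3 (0.88), TBC1D22B (0.87) and FITM2 (0.85).

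A wider list of 91 genes of the NRF2 program, members included, was then described by role. In MOLM-13, 0 of 82 genes tested were called up and 1 down, by limma, beside 1.03% and 1.01% of all genes. An unadjusted limma p under 0.05 was found for 15 of 82 in MOLM-13, 20 of 78 in U937 and 40 of 81 in HL-60. The share of all genes under that limit was not taken, so these 3 counts have no background. In U937, 7 of 78 were called up and 6 down, near the 6.92% and 8.74% of all genes. In HL-60, 27 of 81 were called up and 5 down, beside 13.6% and 12.3% of all genes. The median log2 fold change of the list was -0.06 in MOLM-13, beside 0.007 over all genes tested. In U937 it was -0.02, beside 0.004, and in HL-60 0.21, beside 0.002. Without the 9 members, 4 of 71 rose and 6 fell in U937, again near the share of all genes, and 24 of 73 rose and 4 fell in HL-60. The list was drawn up with earlier results of these libraries known.

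The counts by role stand beside 13.6% of all genes called up and 12.3% down in HL-60 and 6.92% and 8.74% in U937, and the roles hold few genes each. Among glutathione genes, 9 of 21 rose and 0 fell in HL-60, and these were GCLM, the peroxidases GPX1 and GPX4, the transferases GSTM3, GSTO1, MGST1 and MGST3, glutaredoxin GLRX, and SLC7A11, the cystine importer that feeds glutathione synthesis (log2 fold change 1.02, adjusted p = 0.0307). In U937, 1 of 18 rose and 2 fell. Among quinone, carbonyl and haem genes, 10 of 21 rose and 1 fell in HL-60, and 3 of 22 rose and 2 fell in U937. Of the NADPH-supplying genes, ME1, IDH1 and IDH2 rose in HL-60, 3 of 10. Of 12 thioredoxin and peroxiredoxin genes tested in HL-60, 2 rose (TXN and TXNRD2) and 1 fell (PRDX1), near the shares of all genes. Of 12 tested in U937, 1 rose (TXNRD1) and 2 fell (TXNRD3 and PRDX5). Of 14 regulators, MAFG, NFE2 and SQSTM1, which sequesters KEAP1, rose in HL-60. BTRC, MAFF and BACH1, a repressor of antioxidant response elements, fell there. MAFG and MAFF, both small MAF partners of NRF2, thus went opposite ways. MAFF values were low, with means of 25.3 with pLKO and 10.3 with shRNF5 (-1.33, adjusted p = 0.078), and the NFE2 groups overlapped. In U937, CUL3 alone of the regulators was called (0.84, adjusted p = 0.0618). BACH1 had a log2 fold change of -0.56 in HL-60 (adjusted p = 0.0325) and -0.95 in U937 (adjusted p = 0.106). None of the 3 superoxide and peroxide enzymes was called by limma in any line. An unadjusted limma p under 0.05 was found for 1 of 3 in MOLM-13 and 0 of 3 in the other lines, and these counts too have no background.

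**Figure D3:**
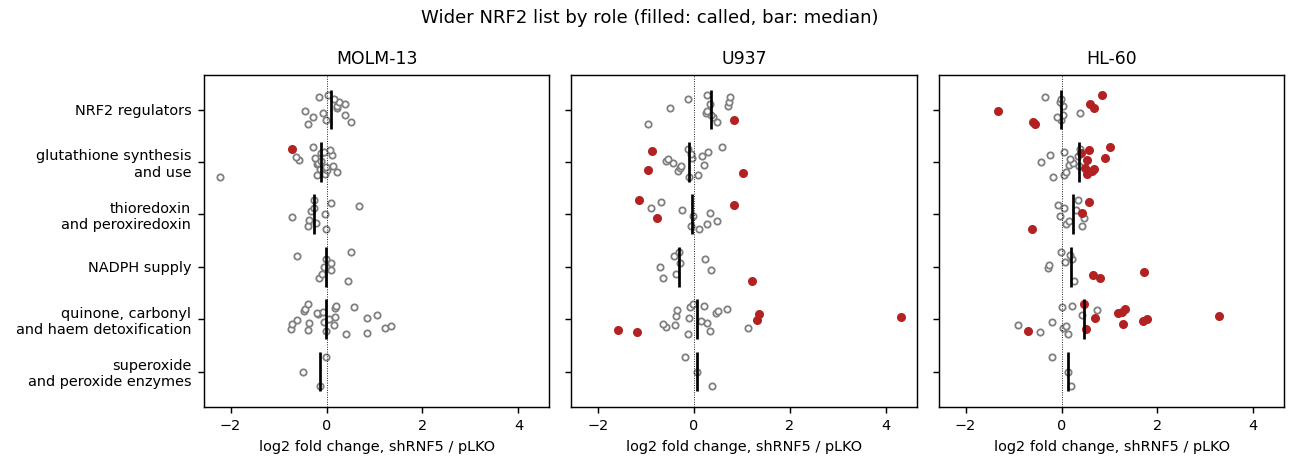
Log2 fold change of shRNF5 over pLKO (horizontal axis) for the genes of the wider list tested in each line, by role (vertical axis). Each point is 1 gene, filled points were called and bars are medians. HL-60 has 32 filled points, U937 has 13 and MOLM-13 has 1.

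HMOX1, haem oxygenase 1, had the largest change of the wider list. Its normalized read counts in U937 were 68 and 105 with pLKO and 1563 and 1872 with shRNF5. In HL-60 they were 11, 3 and 4 with pLKO and 47, 58 and 77 with shRNF5. In MOLM-13 they were 103, 39 and 56 with pLKO and 92 and 179 with shRNF5. The groups were separate in U937 and HL-60 and overlapped in MOLM-13. The log2 fold change was 4.32 ± 0.32 (SE, adjusted p = 0.000634) in U937, 3.28 ± 0.45 (adjusted p = 0.00177) in HL-60, and 1.06 (adjusted p = 0.293) in MOLM-13. The U937 log2 fold change was 4.01 without pLKO replicate 2 and 4.45 without shRNF5 replicate 1, and the call was lost in both fits. They leave a group with a single library, so this loss says little about HMOX1 itself. The response in MOLM-13 was smaller than in U937 (-3.26, adjusted p = 0.0189) and HL-60 (-2.22, adjusted p = 0.0641), and U937 and HL-60 were not shown to differ (1.04, adjusted p = 0.26). Unlike those of the members, these differences were not checked with 1 library left out.

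FTH1, the ferritin heavy chain, was 4837 and 5265 with pLKO and 10592 and 15028 with shRNF5 in U937. In HL-60 it was 2513, 2586 and 2208 with pLKO and 6711, 7234 and 12358 with shRNF5, and the groups were separate in both lines. It rose by 1.32 (adjusted p = 0.0246) and 1.79 (adjusted p = 0.00117) on the log2 scale. In MOLM-13, at 11191, 5834 and 5810 with pLKO and 11289 and 14920 with shRNF5, both shRNF5 libraries were highest, and the change of 0.84 was not called (adjusted p = 0.216) unless pLKO replicate 1 was left out (1.16, adjusted p = 0.0287). FTH1 has many processed pseudogenes, which could share its reads. EPHX1, microsomal epoxide hydrolase, rose in HL-60, from 65, 74 and 63 with pLKO to 220, 183 and 260 with shRNF5 (1.69, adjusted p = 0.00125), and was not called in U937 (0.14) or MOLM-13 (0.06).

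AKR1A1, an aldehyde reductase, GLRX and MGST3, a microsomal glutathione transferase, fell in U937 and rose in HL-60. AKR1A1 was 5338 and 4255 with pLKO and 1479 and 1714 with shRNF5 in U937, and 995, 1398 and 1173 against 1388, 1680 and 2056 in HL-60, where the groups overlapped. Its log2 fold change was -1.58 (adjusted p = 0.0149) in U937 and 0.52 (adjusted p = 0.0542) in HL-60. MGST3 was 4412 and 3928 with pLKO and 2156 and 2376 with shRNF5 in U937 (-0.88, adjusted p = 0.0511), and 451, 557 and 485 against 620, 803 and 798 in HL-60 (0.57, adjusted p = 0.0254). For GLRX the log2 fold change was -0.96 in U937 (adjusted p = 0.0765) and 0.63 in HL-60 (adjusted p = 0.0299). The response differed between these lines for all 3 genes, with adjusted p-values of 0.000528 for AKR1A1, 0.000928 for MGST3 and 0.00354 for GLRX. These differences were not checked with 1 library left out. As for the members, the U937 calls of FTH1, AKR1A1 and MGST3 were lost when any library but pLKO replicate 3 was left out. The U937 call of GLRX was lost without any 1 of the 4. These U937 fits leave a group with a single library, so the losses say little about the genes themselves. In HL-60, the call of AKR1A1 was lost in 4 of 6 fits with a library left out, and that of GLRX without pLKO replicate 3 (0.54, adjusted p = 0.121). Without the mean-variance trend, the U937 calls of FTH1 (adjusted p = 0.11), GLRX (0.174) and MGST3 (0.147) and the HL-60 call of AKR1A1 (0.116) were lost. The length correction ended the calls of GLRX in U937 (-0.78, adjusted p = 0.109) and of AKR1A1 in HL-60, whose fold change it brought to 0.39, under the fold needed.

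**Figure D4:**
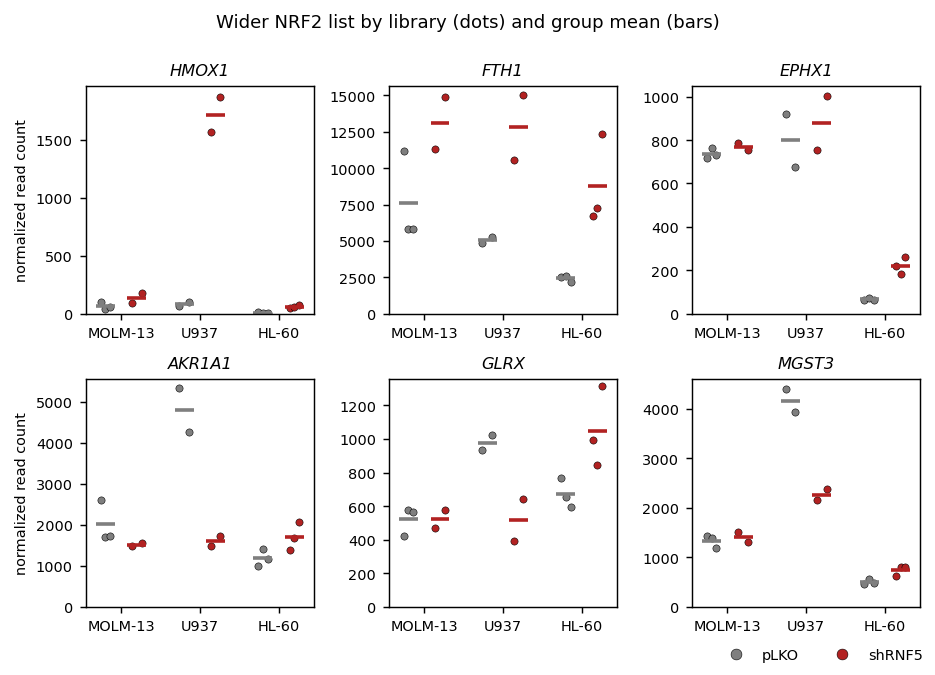
Normalized read count (vertical axis, from 0) of 6 named genes of the wider list in pLKO (grey) and shRNF5 (red) libraries of each line (horizontal axis). Each dot is 1 library and each bar is a group mean. HMOX1 and FTH1 lie higher with shRNF5 in U937 and HL-60, and AKR1A1, GLRX and MGST3 lie lower in U937.

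In MOLM-13 the 1 called gene of the wider list was SLC3A2, the heavy chain that pairs with SLC7A11 in the cystine importer. Its values were 4981, 4028 and 5469 with pLKO and 2962 and 2796 with shRNF5, so the groups were separate. The log2 fold change was -0.73 (adjusted p = 0.0951), but the call was lost in 4 of 5 fits that left out a MOLM-13 library (adjusted p 0.126 to 0.634), with a replicate block (0.114), with the length correction (0.103) and without the mean-variance trend (0.197). In HL-60 it was 0.39 (adjusted p = 0.0732), under the fold needed, and in U937 it was -0.12.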

How the data were processed

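RNA-seq libraries were grouped by line and construct from the sample labels. The authors used STAR for mapping to hg19, featureCounts for counting, and edgeR, run from SARTools, for normalization. The values they deposited are a score, whole numbers left after scaling each library's counts by 1 factor, and a gene removed by their low-count filter is at 0 throughout the line. Such values are not raw counts, so log2(value + 1) was fitted per line by limma 3.58.1 (R 4.3.3) with a mean-variance trend, over genes with a value above 0 in the line, with Benjamini-Hochberg adjustment over all of them. Depth was estimated from gaps between low values. Both procedures were tested on simulated data. The changes planted for limma were larger than several of those called here, so that test does not cover calls near the fold needed. The members and gene lists were chosen with earlier results of these data known. Genes named besides RNF5 and the members are those of the wider list called in at least 2 lines, the 4 largest called changes per line, and the 3 genes most like NFE2L2, GCLM and TXNRD1; other genes of the wider list were named after their values were seen, as examples of their role. Annotation was GENCODE on GRCh37, and the gene model used for counting may differ from it, so shared exonic bases may differ too. Alternatives were a mean value of at least 50, pseudocounts of 0.5 and 10, another scaling, no trend, a replicate block, a length correction, 1 fit over all libraries, an adjusted p under 0.05 and leaving out each library. Counts of called members and of the wider list, and fits over the libraries of a pair of lines alone, were added after the data were seen. The result of 1 gene of the wider list is not reported here.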

Additional observations from a re-analysis of the deposited data

Results flagged for a closer look

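The difference of the response between lines, tested in 1 fit over 15 libraries, passed for the following members. Between MOLM-13 and U937 it was -1.06 for GCLM, -0.74 for TXNRD1 and -1.54 for NQO1 on the log2 scale. Between MOLM-13 and HL-60 it was 0.61 for PRDX1 and -1.35 for NQO1, and -1.60 for ME1 in the fit over these lines alone. Between U937 and HL-60 it was 0.91 for TXNRD1 and 0.72 for PRDX1. In the wider list, it was -2.10 for AKR1A1, -1.59 for GLRX and -1.45 for MGST3 between U937 and HL-60.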

How the results depend on the processing

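For the members within a line, 282 of 316 alternative values kept their direction and call, 2 became called, 16 lost their call and 16 changed sign. Values that changed sign were at most 0.21 in size and were called in neither fit. The counts moved as follows. Without the mean-variance trend, 55 genes were called in MOLM-13 and 475 in U937, with 0 members in U937 and 0 and 2 genes of the wider list. In 1 fit over 15 libraries, 593 genes were called in MOLM-13 and 5208 in U937, with 5 and 24 of the wider list. With the length correction, 0 genes of the wider list were called in MOLM-13. At an adjusted p under 0.05, 39 genes were called in MOLM-13 and 824 in U937, with 0 and 6 of the wider list, and 808 genes differed between MOLM-13 and U937 and 360 between MOLM-13 and HL-60. With a replicate block, 738 genes and 6 of the wider list, without SLC3A2, were called in MOLM-13, and 3580 genes and 4 members in HL-60. The numbers were not taken to pair libraries, since deviations of same-numbered libraries correlated at -0.173 and -0.53 in MOLM-13, by the numbers of the titles, and at 0.505, 0.156 and -0.109 in HL-60, and U937 shares only 1 number. Leaving out 1 library each gave 1 to 872 called genes in MOLM-13, 0 to 2369 in U937 and 1970 to 3413 in HL-60. For the wider list it gave 0 to 4, 0 to 16 and 19 to 36, and for the members in U937 0 to 3. Genes that differed ranged from 130 to 3436 between MOLM-13 and U937, 49 to 1566 between MOLM-13 and HL-60, and 2609 to 4798 between U937 and HL-60. Sign changes arose from the length correction for PRDX1 in MOLM-13 (0.16), from the replicate block for MGST3 in MOLM-13 (-0.01), and from leaving out 1 library for uncalled values. With 1 library left out, log2 fold changes in MOLM-13 ran from -0.13 to 0.01 for KEAP1, -0.19 to 0.14 for GCLM, -0.00 to 0.24 for TXNRD1, -0.04 to 0.03 for PRDX1, -0.01 to 0.18 for ME1, -0.14 to 0.15 for GLRX and -0.03 to 0.17 for MGST3. In U937 they ran from -0.47 to 0.21 for NFE2L2, -0.04 to 0.20 for GCLC, -0.08 to 0.36 for EPHX1 and -0.44 to 0.20 for SLC3A2, and in HL-60 from -0.08 to 0.07 for NFE2L2, -0.01 to 0.11 for GCLC and -0.15 to 0.05 for TXNRD1. The difference of NFE2L2 between MOLM-13 and U937 ran from -0.04 to 0.63, and those between U937 and HL-60 from -0.46 to 0.22 for NFE2L2, -0.28 to 0.01 for KEAP1, -0.10 to 0.14 for GCLC and -0.28 to 0.66 for NQO1. The causes were not tested. Depth limits genes with low values most, such as HMOX1 in HL-60 pLKO.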
